A study of Mus musculus with 15 samples.

Results

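The renin-angiotensin system was described here by 9 genes: its substrate Agt, the enzyme Ren1, the prorenin receptor Atp6ap2, the converting enzyme Ace, the angiotensin II receptors Agtr1a and Agtr1b, and the peptidases Enpep, Anpep and Mme. They were chosen by name, and all 9 have a row among the 46078 genes of the deposited count table. In every group the most abundant member per kilobase of exon was Atp6ap2, while Agtr1b was at or close to 0 reads. Of the 8 members that could be tested, 5 were lower in podocyte fractions of aged IgG2a-injected mice than of young mice. Over all genes tested, 8.38% were lower. The angiotensin II degrading enzyme Enpep led these members, and 1 to 5 members were called when 1 library was left out. With all libraries, no member and 0% of all genes passed edgeR's test between aged aPD1ab-injected and aged IgG2a-injected mice. Without 1 aged IgG2a library that stood apart, Enpep was higher with aPD1ab, where 17.1% of all genes were higher. That library was also the highest of its group in Enpep.

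Renin, which is released by juxtaglomerular cells in the wall of the afferent arteriole, cuts angiotensinogen to angiotensin I. Angiotensin converting enzyme then makes angiotensin II, which constricts vessels and promotes sodium retention through the AT1 receptor. Mice have separate genes for the AT1A and AT1B receptors. Peptidases on the cell surface limit the peptide: aminopeptidase A (Enpep) shortens angiotensin II, aminopeptidase N (Anpep) shortens it further, and neprilysin (Mme) turns angiotensin I into angiotensin 1-7. In the kidney these peptidases are known from the brush border of the proximal tubule and, for Enpep and Mme, also from podocytes, the cells that cover the glomerular filter.

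Bulk mRNA-Seq was done on the podocyte fraction of male C57BL/6J mice, which was obtained from digested kidney cortex with Nephrin antibodies and magnetic beads. The young group was 4 months old and was not injected. The aged mice, 21 months old when assigned at random to a treatment, received weekly intraperitoneal injections at 12 mg/kg for 8 weeks of either the isotype control antibody IgG2a (clone 2A3) or an antibody against PD-1 (aPD1ab, clone RMP1-14), an inhibitory receptor of T cells. The titles of the aPD1ab samples give 47 days. The labels list 5 mice in each group, and the study's principal component plot ties 5 young, 4 aged IgG2a and 4 aged aPD1ab columns of the table to a group. Replicate numbers below only name these libraries. Because young mice were not injected, age and the injection of a control antibody cannot be told apart in the comparison of aged IgG2a with young mice.

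The 13 libraries held 19912969 to 32717100 counted reads, so that a count of 3 reads stood for 0.0851 to 0.202 CPM, reads scaled to the same library size with TMM factors. Podocyte markers were present in every library, at a summed level of 912 to 1470 CPM over 12 genes in young, 538 to 732 CPM in aged IgG2a and 281 to 896 CPM in aged aPD1ab libraries. Markers of other cells were present too: the 15 proximal tubule markers summed to 6748 to 10677 CPM in young, 1205 to 5272 CPM in aged IgG2a and 5229 to 15439 CPM in aged aPD1ab libraries, and the 10 macrophage markers to 1493 to 2638 CPM, 2193 to 6944 CPM and 1571 to 3736 CPM. Aged IgG2a replicate 1 stood apart from its group, with 5272 CPM of proximal tubule markers against 1205 to 1764 CPM in the other 3 libraries, and 2193 CPM of macrophage markers against 4964 to 6944 CPM. Aged aPD1ab replicate 2 had the lowest podocyte sum of all libraries (281 CPM) and the highest proximal tubule sum (15439 CPM). Results are therefore given with and without aged IgG2a replicate 1, and without aged aPD1ab replicate 2 where a value rests on it. In such mixed fractions, fewer cells of a type and less RNA per cell cannot be told apart.

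Angiotensinogen, the AT1A receptor and the peptidases that degrade angiotensins were lower in aged mice that had received IgG2a than in the young group. Enpep fell 3.87-fold, Agt 2.18-fold, Agtr1a 2.04-fold, Mme 1.94-fold and Anpep 1.51-fold. Of the 8 members tested, these 5 passed edgeR's quasi-likelihood test at an adjusted p under 0.05, all of them lower, where 17.4% of the 15953 genes tested passed, 8.38% as lower and 9.05% as higher. The median log2 fold change was -0.99 over the 8 members and 0.038 over all genes tested. For Enpep, Agtr1a and Anpep, every aged IgG2a library was below every young library, a pattern that 9.45% of genes tested showed, while 4.88% were higher without overlap. Ren1, Ace and Atp6ap2 did not pass. Without aged IgG2a replicate 1, 5 members passed as lower, where 45.6% of the 16216 genes then tested passed and 23.5% were lower, and 5 members were below without overlap, beside 28.7% of genes. The count was smaller when other libraries were left out: 2 members passed without young replicate 2 or 3, 1 (Enpep) without aged IgG2a replicate 3, and 3 without young replicate 1 or 5 or aged IgG2a replicate 2 or 4. Calls over all genes fell too in these fits, from 2780 with all libraries. They called 553 genes (without aged IgG2a replicate 3) to 1504 genes (without young replicate 5).

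Between aged aPD1ab-injected and aged IgG2a-injected mice, log2 fold changes were 1.79 for Agt, 1.05 for Enpep, 0.96 for Agtr1a and 0.72 for Anpep, and none of the 8 members passed edgeR's test. Without aged aPD1ab replicate 2 these values were 0.61 for Agt, 0.86 for Enpep, 0.85 for Agtr1a and 0.33 for Anpep, and none passed. Over all genes tested, 0% passed (0 of 15530, lowest adjusted p 0.102 from edgeR), while 4341 genes, 4 members among them, had an unadjusted p under 0.05. Other tests on the same libraries called more genes: DESeq2 called 2373, with Agt and Agtr1a among them, and limma voom with sample quality weights called 6160, with Agtr1a and Enpep among them. Groups overlapped for all 8 members, where 6.61% of genes were higher and 4.91% lower without overlap. Without aged IgG2a replicate 1, Enpep alone passed as higher, 3.12-fold, where 30.4% of the 15770 genes tested passed and 17.1% were higher, and Agt, Enpep and Mme were higher without overlap, beside 25.6% of genes. This comparison and the one with young mice share the aged IgG2a libraries, so that a high or low aged IgG2a value moves both in opposite directions.

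Between aged aPD1ab-injected and young mice, Enpep (1.92-fold) and Mme (1.83-fold) were lower, and the other 6 tested members did not pass. These 2 of 8 stood beside 9.97% of the 15986 genes tested that passed as lower. In Enpep and Mme every aged aPD1ab library was below every young library, as in 10.7% of genes. The plot of fold changes sets the 3 comparisons side by side.

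**Figure D1:**
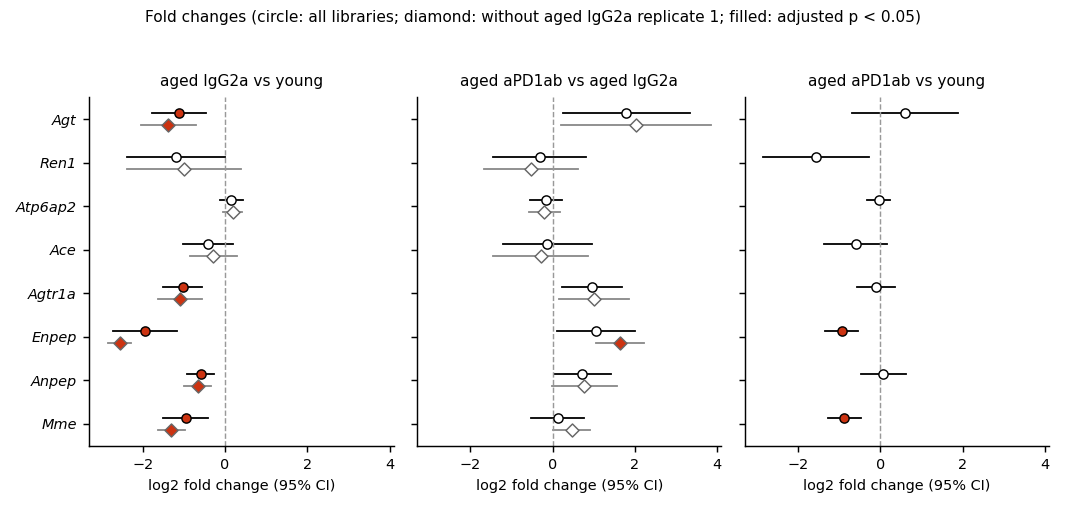
Log2 fold change (x axis) of the 8 tested members (y axis) in the 3 comparisons, with 95% confidence intervals; circles use all libraries, diamonds leave out aged IgG2a replicate 1, and filled symbols passed at an adjusted p under 0.05. In aged IgG2a against young mice 5 members lie below 0 and passed, and Enpep lies lowest with and without that replicate.

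Agt (ENSMUSG00000031980, chr8:124556534-124569706, minus strand, GRCm38) encodes angiotensinogen, from which all angiotensins are cut. The stretch of exon 2 that encodes angiotensin I lies at chr8:124564450-124564479 in transcript ENSMUST00000063278.6. It is shown because Ace and Mme act on this peptide, and Enpep acts on angiotensin II. Capitals mark the codons of angiotensin II, and the lower-case end is what Ace removes.
Agt, angiotensin I: GACCGCGTATACATCCACCCCTTCcatctc
Young libraries 1 to 5 held 9.54, 16.1, 14.1, 6.19 and 9.51 CPM of Agt. In aged IgG2a libraries 1 to 4 Agt stood at 7.19, 4.53, 3.64 and 3.97 CPM. In aged aPD1ab libraries 1 to 4 it stood at 6.59, 44.0, 11.3 and 4.76 CPM. The aged IgG2a libraries were at or below the low end of the young range, with an overlap between aged IgG2a replicate 1 and young replicate 4 only, and the aged aPD1ab group spread most, owing to replicate 2. The group means were 11.1 ± 3.96 CPM (SD, n = 5), 4.83 ± 1.62 CPM (SD, n = 4) and 16.7 ± 18.4 CPM (SD, n = 4).

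Agt was lower in aged IgG2a than in young mice, at -1.12 on the log2 scale (standard error 0.30, edgeR adjusted p = 0.0325), or -1.38 without aged IgG2a replicate 1 (standard error 0.30, edgeR adjusted p = 0.00437). The call was lost when young replicate 1, 2, 3 or 5 or aged IgG2a replicate 2, 3 or 4 was left out (edgeR adjusted p 0.0520 to 0.0976) and in 1 edgeR fit of all 3 groups (adjusted p = 0.161). Against aged IgG2a mice the log2 fold change with aPD1ab was 1.79 (standard error 0.68, edgeR adjusted p = 0.139), 2.02 without aged IgG2a replicate 1 (edgeR adjusted p = 0.0858) and 0.61 without aged aPD1ab replicate 2 (edgeR adjusted p = 0.370). With all libraries DESeq2 called this difference (adjusted p = 0.0432, with a range over all alternatives of 0.0432 to 0.370). Against young mice the log2 fold change with aPD1ab was 0.60 (95% interval -0.69 to 1.89, edgeR adjusted p = 0.489), and it turned to -0.56 (edgeR adjusted p = 0.266) without aged aPD1ab replicate 2, the library with the highest proximal tubule marker sum.

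Ren1 (ENSMUSG00000070645, chr1:133350510-133360325, plus strand) encodes renin, the rate-limiting enzyme of the cascade. It was the most variable member in young mice: libraries 1 to 5 held 26.5, 29.9, 77.5, 19.0 and 11.7 CPM. Aged IgG2a libraries 1 to 4 held 7.61, 9.83, 18.5 and 19.0 CPM. Aged aPD1ab libraries 1 to 4 held 8.99, 18.2, 13.6 and 3.63 CPM. All 3 groups overlapped, although 3 young libraries were above every aged library and young replicate 4 matched the highest aged one, and young replicate 3 was far above the other young mice. In aged IgG2a against young mice the log2 fold change was -1.19 (standard error 0.53, 95% interval -2.38 to -0.0035, edgeR adjusted p = 0.137), and -0.997 without aged IgG2a replicate 1 (edgeR adjusted p = 0.209). With aPD1ab it was -1.56 against young mice (standard error 0.58, edgeR adjusted p = 0.0770). Without young replicate 3 these values were -0.59 (edgeR adjusted p = 0.326) and -0.96 (edgeR adjusted p = 0.168). With library totals only in place of TMM, a scaling chosen after seeing the data, both passed, at -1.66 (edgeR adjusted p = 0.0293, range over all alternatives 0.0293 to 0.326) and -1.70 (edgeR adjusted p = 0.0494, range 0.0494 to 0.199). Between the aged groups the log2 fold change was -0.32 (95% interval -1.44 to 0.80, edgeR adjusted p = 0.699), and -0.54 without aged IgG2a replicate 1 (edgeR adjusted p = 0.443).

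The start sites of Ren1, Agt, Enpep and Ace are shown because these 4 genes make the substrate and the enzymes that form and remove angiotensin II, and Agt and Enpep passed the test with age while Ren1 and Ace did not. The lines give the 80 bases before the RefSeq transcript start on the gene's strand (GRCm38.p6), at chr1:133350594-133350673 for Ren1, chr8:124569707-124569786 for Agt, chr3:129332750-129332829 for Enpep and chr11:105967868-105967947 for Ace. Capitals mark a match to TATAAA, read on either strand.
Ren1: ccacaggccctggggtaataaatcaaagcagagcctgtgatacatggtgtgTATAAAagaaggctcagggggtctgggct
Agt: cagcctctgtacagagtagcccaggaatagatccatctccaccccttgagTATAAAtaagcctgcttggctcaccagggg
Enpep: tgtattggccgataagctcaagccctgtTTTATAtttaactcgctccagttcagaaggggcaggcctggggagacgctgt
Ace: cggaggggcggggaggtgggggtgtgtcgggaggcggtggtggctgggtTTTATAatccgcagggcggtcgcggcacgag
RefSeq promoter windows were found for 8 of the 9 members. TATAAA lay within 250 bases before the start in 12.4% of all 32851 windows, and these 4 members and Agtr1b held it. The cAMP response element TGACGTCA, read the same way, was in no member window and in 1.55% of all windows. These matches describe the letters in the window only.

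Atp6ap2 (ENSMUSG00000031007, chrX:12587801-12617049, plus strand) encodes the prorenin receptor, which is also a part of the vacuolar proton pump that most cells use. Young libraries 1 to 5 held 122.9, 116.7, 128.3, 141.8 and 109.7 CPM, aged IgG2a libraries 1 to 4 held 121.7, 146.3, 138.0 and 117.7 CPM, and aged aPD1ab libraries 1 to 4 held 103.7, 120.5, 146.7 and 105.1 CPM. The 3 groups lay in the same range, and the spread within a group was 9.83% to 16.8% of its mean. The log2 fold change was 0.15 in aged IgG2a against young mice (95% interval -0.12 to 0.43, edgeR adjusted p = 0.388), -0.16 in aged aPD1ab against aged IgG2a mice (95% interval -0.54 to 0.23, edgeR adjusted p = 0.567) and -0.044 in aged aPD1ab against young mice (95% interval -0.33 to 0.24, edgeR adjusted p = 0.833). Without aged IgG2a replicate 1 the log2 fold changes were 0.19 and -0.21 against young and aged aPD1ab mice. The direction is not settled at this size of change: with library totals only it was -0.27 in aged IgG2a against young mice, and limma voom with sample quality weights called it higher (0.25, adjusted p = 0.0436, range over all alternatives 0.0436 to 0.701).

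Ace (ENSMUSG00000020681, chr11:105967945-105989964, plus strand) encodes angiotensin converting enzyme, a peptidase with a pair of catalytic centres that removes dipeptides from the carboxyl end of its substrates. Young libraries 1 to 5 held 102.1, 114.0, 113.7, 79.1 and 98.5 CPM. Aged IgG2a libraries 1 to 4 held 48.9, 60.6, 55.5 and 121.6 CPM. Aged aPD1ab libraries 1 to 4 held 69.4, 125.1, 34.1 and 36.2 CPM. In each aged group 3 libraries were below every young library and 1 was above every young library. The log2 fold change was -0.42 in aged IgG2a against young mice (standard error 0.27, edgeR adjusted p = 0.294) and -0.28 without aged IgG2a replicate 1 (edgeR adjusted p = 0.397), but without aged IgG2a replicate 4 it was -0.84 and passed (edgeR adjusted p = 0.0256, range over all alternatives 0.0173 to 0.525). Against young mice the aged aPD1ab libraries gave -0.60 (edgeR adjusted p = 0.234), and -1.11 without aged aPD1ab replicate 2 (edgeR adjusted p = 0.0113, range over all alternatives 0.0113 to 0.450). Between the aged groups it was -0.13 (95% interval -1.21 to 0.94, edgeR adjusted p = 0.877), and its sign turned when aged IgG2a replicate 4 (0.27) or aged aPD1ab replicate 3 (0.086) or 4 (0.078) was left out. Ace shares its locus with the antisense gene Gm11651, and whether the counting used strand is not given in the sources used here.

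Of the AT1 receptors, the fractions held Agtr1a and next to no Agtr1b. Agtr1a (ENSMUSG00000049115, chr13:30336441-30382867, plus strand) encodes the AT1A receptor, the main AT1 form of the mouse kidney. Young libraries 1 to 5 held 33.3, 32.4, 38.5, 30.7 and 31.9 CPM, a spread of 9.09% of the mean. The aged IgG2a libraries held 18.0, 19.7, 16.3 and 8.07 CPM. The aged aPD1ab libraries held 23.8, 35.9, 19.2 and 42.8 CPM. Every aged IgG2a library was below every young library, while the aged aPD1ab libraries ran from the top of the aged IgG2a range to above the young range. Agtr1a was lower in aged IgG2a than in young mice, at -1.03 on the log2 scale (standard error 0.21, edgeR adjusted p = 0.0172), or -1.10 without aged IgG2a replicate 1 (edgeR adjusted p = 0.00424). The call was lost when aged IgG2a replicate 3 was left out (-1.06, edgeR adjusted p = 0.0532). The log2 fold change of aged aPD1ab against aged IgG2a mice was 0.96 (standard error 0.32, edgeR adjusted p = 0.123), and 1.01 without aged IgG2a replicate 1 (edgeR adjusted p = 0.0703). It was called by DESeq2 (adjusted p = 0.0484), by limma voom with sample quality weights (adjusted p = 0.0326) and by 1 edgeR fit of all 3 groups (adjusted p = 0.0303), with a range over all alternatives of 0.0303 to 0.287. Against young mice the aged aPD1ab libraries gave -0.12 (95% interval -0.58 to 0.35, edgeR adjusted p = 0.721).

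Agtr1b (ENSMUSG00000054988, chr3:20314473-20367177, minus strand) encodes the AT1B receptor. It had 0 to 4 reads in young, 0 to 2 reads in aged IgG2a and 0 to 2 reads in aged aPD1ab libraries, which is at or close to the floor of 3 reads, and it was not tested. The coding sequences of the AT1 receptor genes are 90.8% identical (978 of 1077 bases), and 33 of 1028 windows of 50 bases in Agtr1b occur exactly in Agtr1a. Reads from those stretches could have been counted for either gene or left out, so that the few Agtr1b reads are uncertain.

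Enpep, Anpep and Mme are zinc peptidases with their active site outside the cell. Their zinc-binding motif (histidine, glutamate, any 2 residues, histidine) is shown as coding sequence beside those of Ace. The enzymes of these 4 genes act on the peptide encoded by the Agt stretch above or on peptides cut from it. Capitals mark the codons of the histidines and the glutamate, on the gene's strand. The sites lie in exon 5 of Enpep (chr3:129309772-129309786), exon 5 of Anpep (chr7:79839166-79839180), exon 18 of Mme (chr3:63362021-63362035), and exons 8 (chr11:105972910-105972924) and 20 (chr11:105985094-105985108) of Ace.
Enpep: CACGAActtgtaCAC
Anpep: CACGAGctggccCAT
Mme: CATGAAatcacaCAT
Ace, exon 8: CACGAGatgggcCAC
Ace, exon 20: CACGAAatgggcCAC
The Ace motifs differ in the glutamate codon only.

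Enpep (ENSMUSG00000028024, chr3:129269175-129332720, minus strand) encodes aminopeptidase A, the main enzyme that turns angiotensin II into angiotensin III. Young libraries 1 to 5 held 123.0, 127.4, 138.3, 159.6 and 140.3 CPM. Aged IgG2a libraries 1 to 4 held 70.8, 19.4, 25.9 and 21.0 CPM. Aged aPD1ab libraries 1 to 4 held 71.7, 94.7, 45.2 and 71.8 CPM. Every young library was above every aged library, and the aged aPD1ab libraries lay between the young ones and aged IgG2a replicates 2 to 4, with aged IgG2a replicate 1 inside their range. Enpep was lower in aged IgG2a than in young mice, at -1.95 on the log2 scale (standard error 0.35, 95% interval -2.73 to -1.17, edgeR adjusted p = 0.0112). Without aged IgG2a replicate 1 it was -2.56, or 5.91-fold lower (standard error 0.13, edgeR adjusted p = 2.21e-06). Enpep was the only member whose call for this comparison held in all 17 alternatives, with log2 fold changes from -2.56 to -1.77 and adjusted p up to 0.0437.

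With aPD1ab, Enpep was 2.08-fold higher than in aged IgG2a mice (log2 fold change 1.05, standard error 0.41, edgeR adjusted p = 0.145), which did not pass. Leaving out aged IgG2a replicate 1, it was 3.12-fold higher (log2 fold change 1.64, standard error 0.25, edgeR adjusted p = 0.00737). The library left out was itself the highest of its group in Enpep, at 70.8 CPM against 19.4 to 25.9 CPM. Its removal thus raised the difference. Limma voom with sample quality weights, which gives each library a weight by its quality, also called it (1.49, adjusted p = 0.00306, range over all alternatives 0.00306 to 0.334). Enpep was lower in aged aPD1ab than in young mice (log2 fold change -0.94, standard error 0.18, edgeR adjusted p = 0.00769), a call that 1 edgeR fit of all 3 groups lost (adjusted p = 0.0649). Enpep overlaps the pseudogene Gm42628.

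Anpep (ENSMUSG00000039062, chr7:79821803-79861059, minus strand) encodes aminopeptidase N, which shortens angiotensin III and is also expressed by myeloid cells. Young libraries 1 to 5 held 72.1, 84.2, 98.3, 72.7 and 85.1 CPM. For aged IgG2a libraries 1 to 4 the values were 59.3, 61.3, 45.8 and 41.1 CPM. For aged aPD1ab libraries 1 to 4 they were 61.7, 143.1, 57.3 and 81.3 CPM. All aged IgG2a libraries were below all young ones, and the aged aPD1ab libraries reached from within the aged IgG2a range to above the young range. The log2 fold change in aged IgG2a against young mice was -0.60 (standard error 0.14, edgeR adjusted p = 0.0253), and -0.66 without aged IgG2a replicate 1 (edgeR adjusted p = 0.00420). The call was lost without young replicate 2, 3 or 5 or aged IgG2a replicate 3 or 4 (edgeR adjusted p 0.0510 to 0.0828) and in 1 edgeR fit of all 3 groups (adjusted p = 0.0773). With aPD1ab it was 0.72 against aged IgG2a mice (standard error 0.31, edgeR adjusted p = 0.168), 0.76 without aged IgG2a replicate 1 (edgeR adjusted p = 0.126) and 0.33 without aged aPD1ab replicate 2 (edgeR adjusted p = 0.369). Against young mice it was 0.071 (95% interval -0.48 to 0.62, edgeR adjusted p = 0.860), and it turned to -0.29 without aged aPD1ab replicate 2. Anpep overlaps the gene Gm44974.

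Mme (ENSMUSG00000027820, chr3:63241537-63386030, plus strand) encodes neprilysin, which forms angiotensin 1-7 and also degrades natriuretic peptides. Young libraries 1 to 5 held 78.8, 88.7, 93.4, 119.7 and 73.7 CPM. Aged IgG2a libraries 1 to 4 held 75.6, 34.4, 34.2 and 35.7 CPM. With aPD1ab, libraries 1 to 4 held 46.2, 65.4, 47.5 and 37.2 CPM. Aged IgG2a replicates 2 to 4 lay close together (34.2 to 35.7 CPM) and below all other libraries, while replicate 1 was inside the young range. Mme was lower in aged IgG2a than in young mice, at -0.96 on the log2 scale (standard error 0.25, edgeR adjusted p = 0.0307), or -1.31 without aged IgG2a replicate 1 (standard error 0.15, edgeR adjusted p = 7.12e-05). The first of these calls was lost without young replicate 1, 2, 3 or 4 or aged IgG2a replicate 2, 3 or 4 (edgeR adjusted p 0.0551 to 0.0947). The value of aged aPD1ab against aged IgG2a mice was 0.13 on the log2 scale (95% interval -0.52 to 0.77, edgeR adjusted p = 0.798), and 0.46 without aged IgG2a replicate 1 (edgeR adjusted p = 0.107). Its sign turned without aged IgG2a replicate 2 (-0.010) or aged aPD1ab replicate 2 (-0.063). Mme was lower in aged aPD1ab than in young mice (-0.87, standard error 0.19, edgeR adjusted p = 0.0100), and that call held when any library was left out.

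**Figure D2:**
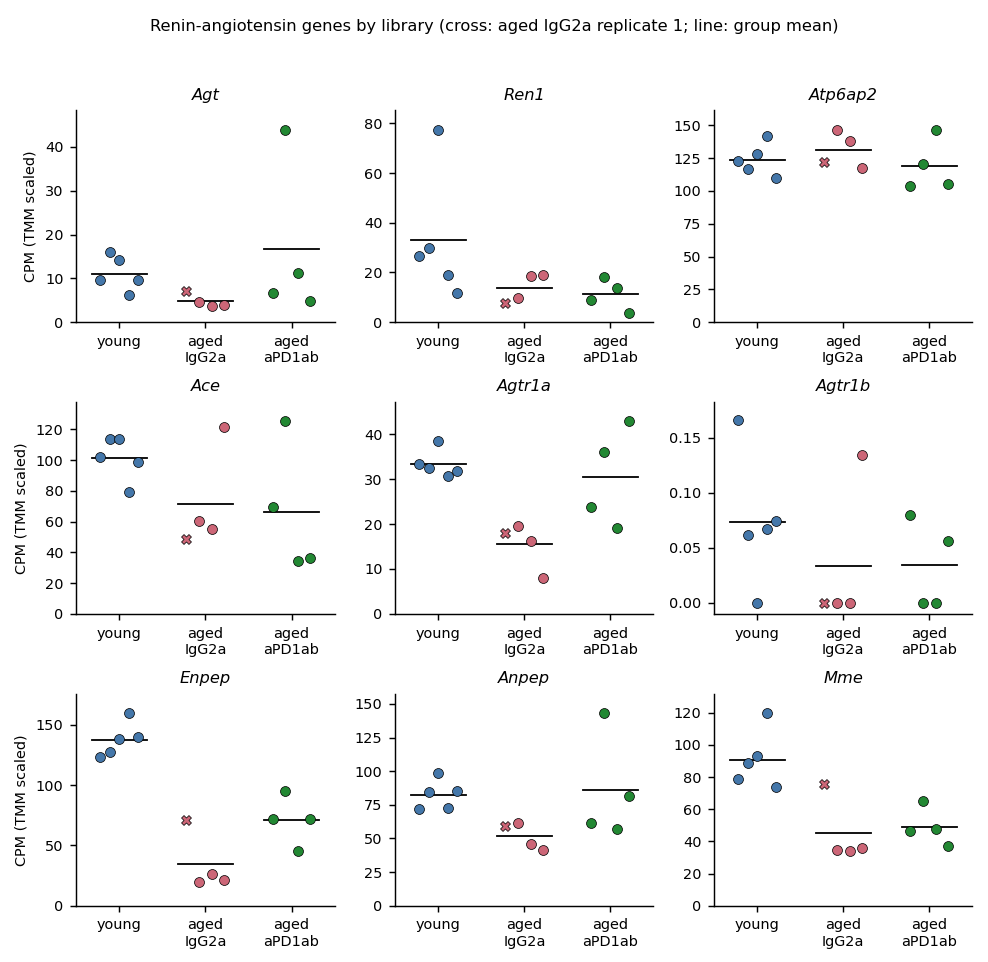
CPM (y axis, linear, a panel for each gene) of the 9 members in each library, by group (x axis); the line is the group mean and the cross is aged IgG2a replicate 1. In Enpep and Agtr1a all aged IgG2a libraries lie below the young ones, in Mme the cross lies with the young libraries, and in Agt aged aPD1ab replicate 2 lies far above all others at 44.0 CPM.

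Per kilobase of merged exon, the order of levels in young mice was Atp6ap2 at 47.3 ± 4.65 CPM per kb (SD, n = 5), Enpep at 29.3 ± 3.02, Anpep at 19.9 ± 2.60, Ren1 at 19.9 ± 15.6, Ace at 19.2 ± 2.70, Agtr1a at 12.0 ± 1.09, Mme at 7.87 ± 1.55, Agt at 5.86 ± 2.10 and Agtr1b at 0.034 ± 0.028 CPM per kb. The libraries of Anpep, Ren1 and Ace overlapped, as did those of Mme and Agt, so that these neighbours could not be ordered. Ren1, with young libraries from 7.07 to 46.8 CPM per kb, overlapped every other member except Agtr1b, so that its place was not set. In aged IgG2a mice Atp6ap2 was again highest (44.9 to 55.9 CPM per kb), and Enpep, second in young mice, was the fifth, at 7.29 ± 5.21 CPM per kb. There all neighbours between Ace (13.6 CPM per kb) and Agt (2.55 CPM per kb) overlapped. In aged aPD1ab mice Enpep was the third, at 15.1 ± 4.30 CPM per kb (SD, n = 4), and its libraries overlapped those of Anpep (20.8 CPM per kb) and Ace (12.5 CPM per kb).

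**Figure D3:**
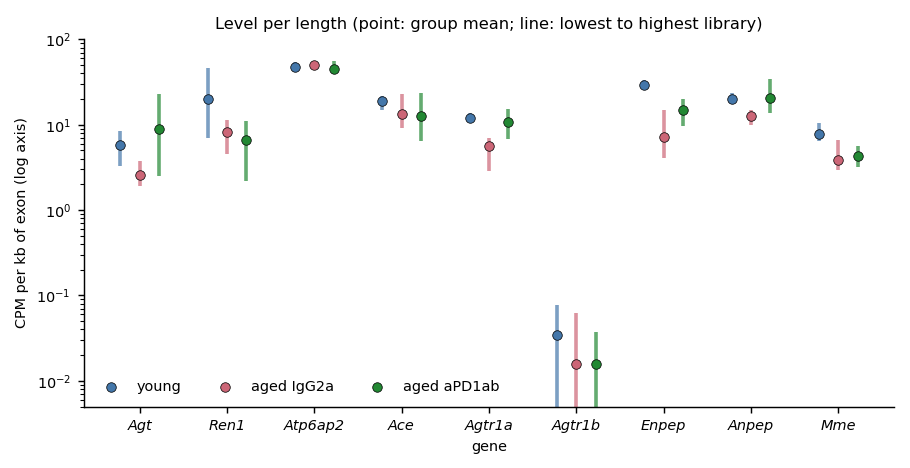
Level of each member (x axis) in CPM per kb of merged exon (y axis, log scale) by group; points are group means and lines run from the lowest to the highest library, with libraries at 0 below the axis. Atp6ap2 lies highest in each group, with libraries from 39.6 to 56.0 CPM per kb, and Agtr1b lies lowest.

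Markers of the cells that are known to carry these genes moved with several of them. In aged IgG2a against young mice 13 of 15 proximal tubule markers were lower (median log2 fold change -1.78), as were 9 of 12 podocyte markers (median -1.63, with 1 higher), 5 of 11 mesangial, pericyte and smooth muscle markers (median -0.71) and 7 of 10 endothelial markers (median -0.48), and 8 of 10 macrophage markers were higher (median 1.25). Over all genes tested in this comparison, 8.38% passed as lower and 9.05% as higher. Of the other lists, 1 of 10 lymphocyte markers (Cd3d, 2.02), 1 of 10 markers of the thick limb, distal tubule and collecting duct (Aqp2, 1.05) and 1 of 5 fibroblast markers (Dcn, 1.83) were higher, and 1 of 3 hepatocyte markers (Ttr, -1.64) was lower. The podocyte genes Synpo (-1.84), Plce1 (-2.18), Podxl (-1.56) and Wt1 (-2.59) and the smooth muscle gene Myh11 (-1.64) had the lowest p of their lists. Compared with young mice, aged aPD1ab mice had no proximal tubule marker of 15 that passed (median 0.013), 3 of 12 podocyte markers (median -0.87) and 6 of 11 mesangial, pericyte and smooth muscle markers (median -0.83) were lower, and none of 10 macrophage markers passed. There, 9.97% of all genes passed as lower and 12.4% as higher. When aged IgG2a replicate 1 was left out, aged aPD1ab against aged IgG2a mice gave 14 of 15 proximal tubule markers higher (median 2.57), 4 of 12 podocyte markers higher and 1 lower, and 10 of 10 macrophage markers lower (median -1.29). In that fit 17.1% of all genes passed as higher and 13.2% as lower. With all libraries 0 of these markers passed edgeR's test between the aged groups.

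Across libraries, Enpep was lowest (19.4 to 25.9 CPM) in the 3 aged IgG2a libraries with the lowest proximal tubule sums (1205 to 1764 CPM) and the highest macrophage sums (4964 to 6944 CPM). Young and aged aPD1ab libraries differed in Enpep without overlap while their proximal tubule sums overlapped. Their podocyte marker sums did not overlap, at 912 to 1470 CPM in young and 281 to 896 CPM in aged aPD1ab libraries. Agt was highest, at 44.0 CPM, in the library with the highest proximal tubule sum, and Nphs1, which encodes nephrin, the antigen of the cell sort, was at 7.61 CPM there, against 43.4 to 81.4 CPM in young libraries, 18.7 to 43.1 CPM in the other aged aPD1ab libraries, and 4.03 to 19.8 CPM in aged IgG2a libraries, 3 of which were lower. For Ren1, the mesangial, pericyte and smooth muscle markers summed to 346 to 464 CPM in young, 166 to 242 CPM in aged IgG2a and 198 to 261 CPM in aged aPD1ab libraries, so that this sum separated young from aged mice where Ren1 did not. Young replicate 3, which was highest in Ren1, was within the young range of that sum, at 389.8 CPM. Hepatocyte markers, listed because the liver makes most circulating angiotensinogen, summed over 4 genes to 16.2 to 35.4 CPM in young, 5.10 to 16.03 CPM in aged IgG2a and 15.3 to 43.6 CPM in aged aPD1ab libraries, with the highest sum in aged aPD1ab replicate 2, where Agt was highest too. The part of these markers in the differences of the members was not tested.

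**Figure D4:**
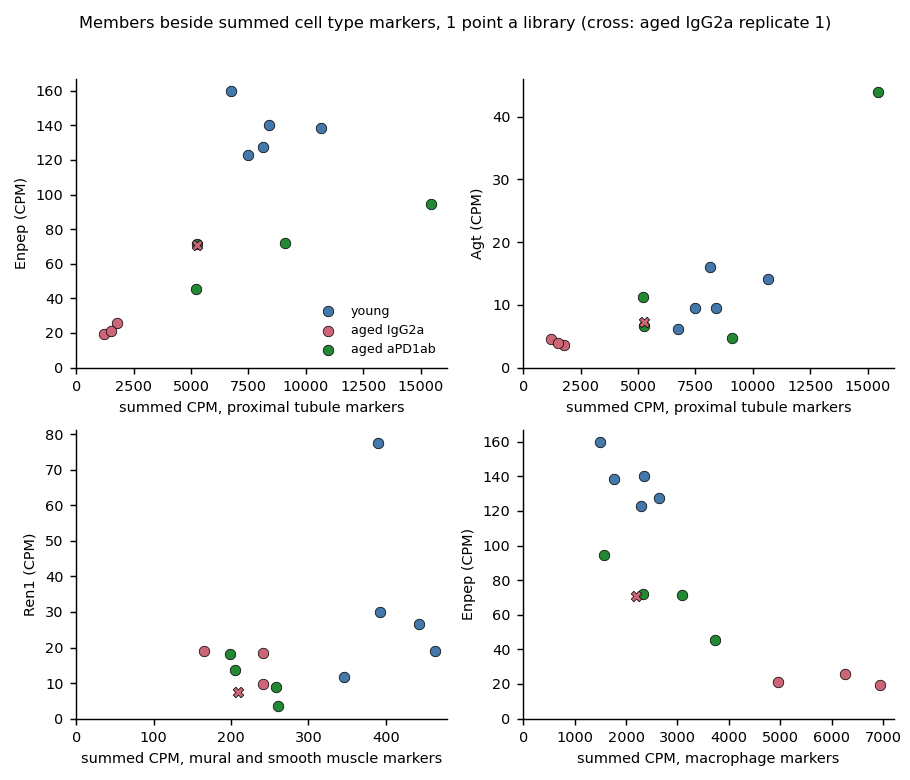
Enpep, Agt and Ren1 (y axes, CPM) against the summed CPM of proximal tubule, mural and smooth muscle, or macrophage markers (x axes), with 1 point for each library and a cross for aged IgG2a replicate 1. The 3 other aged IgG2a libraries lie at the lower left for Enpep and proximal tubule markers, and young libraries lie above aged aPD1ab libraries at overlapping sums. Podocyte marker sums, which are not drawn, did not overlap between young and aged aPD1ab libraries.

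Of 17 other genes of the system, 12 could be tested in aged IgG2a against young mice, and 2 were lower and 2 higher, where 17.4% of all genes passed. Their median log2 fold change was -0.071, beside 0.038 over all genes. Among them, the kallikrein gene Klk1, which releases kinins, fell by 0.80 on the log2 scale (standard error 0.23, edgeR adjusted p = 0.0406). The lysosomal carboxypeptidase cathepsin A (Ctsa, 0.73, edgeR adjusted p = 0.0364) and aminopeptidase B (Rnpep, 0.43, edgeR adjusted p = 0.0286) were higher.

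When aged IgG2a replicate 1 was left out, 3 of the 12 were lower and 3 higher than in young mice, where 45.6% of all genes passed. Prolylcarboxypeptidase (Prcp), which makes angiotensin 1-7, was among the higher ones (0.83, edgeR adjusted p = 8.51e-05). Between the aged groups none of the 12 passed with all libraries, and without that replicate, where 30.4% of all genes passed, 2 were higher and 2 lower, among them the AT1 receptor-associated protein Agtrap at 0.50 (edgeR adjusted p = 0.0391), Prcp at -0.76 (edgeR adjusted p = 0.00815) and Lnpep, the angiotensin IV receptor, at -1.24 (edgeR adjusted p = 0.00954). Lnpep differed most from young mice in aged aPD1ab mice (-1.49, standard error 0.21, edgeR adjusted p = 0.00364), with 17.4 to 37.5 CPM against 64.5 to 96.1 CPM. In that comparison 2 of the 12 were lower (Lnpep, Klk1) and 3 higher (Ctsa, Rnpep, Ctsd), where 22.4% of all genes passed. The heat map of the members and these genes shows the libraries side by side.

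**Figure D5:**
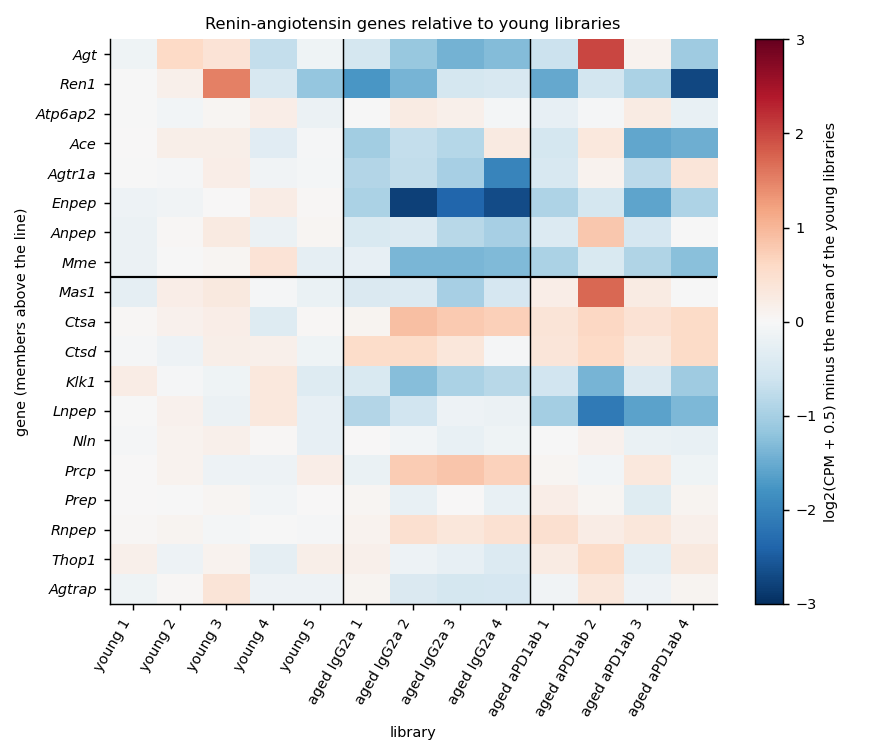
Log2(CPM + 0.5) of each gene (rows, members above the line) in each library (columns, grouped by black lines) minus the mean of the young libraries; blue is lower and red is higher. Enpep is deep blue in aged IgG2a replicates 2 to 4 (-2.79 to -2.38), as is Ren1 in aged aPD1ab replicate 4 (-2.73), and Agt (2.01) and Mas1 (1.73) are reddest in aged aPD1ab replicate 2.

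Nearly all of a list of other peptidases, most but not all of them known from the brush border, were lower in aged IgG2a mice too. In aged IgG2a against young mice 9 of 10 tested were lower (median log2 fold change -1.52), beside 8.38% of all genes, with Mep1b, a meprin subunit, at -3.20 (standard error 0.48, edgeR adjusted p = 0.00638), the carnosine dipeptidase relative Cndp2 at -1.20 (edgeR adjusted p = 0.0111), the renal dipeptidase Dpep1 at -1.49 (edgeR adjusted p = 0.0131) and Dpp4 at -0.70 (edgeR adjusted p = 0.0185). Between the aged groups 0 of 10 passed with all libraries (median 1.61) and 7 were higher without aged IgG2a replicate 1 (median 2.28), beside 17.1% of all genes. Of 11 tested in aged aPD1ab against young mice, where 22.4% of all genes passed, 1 passed, Dpp4 at -0.76 (edgeR adjusted p = 0.00512), and the median was -0.022.

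Of 20 genes tied to juxtaglomerular cells and the control of renin, 3 were lower and 2 higher in aged IgG2a against young mice (median 0.089), where 17.4% of all genes passed. Akr1b7, an aldo-keto reductase of renin cells, was at 1.27 to 2.85 CPM in young, 0.54 to 0.73 CPM in aged IgG2a and 0.32 to 0.73 CPM in aged aPD1ab libraries, below the young range in every aged library. It fell by 1.51 on the log2 scale in aged IgG2a (standard error 0.33, edgeR adjusted p = 0.0199) and by 1.71 in aged aPD1ab against young mice (edgeR adjusted p = 0.0109). Rgs5, a signalling regulator of pericytes and renin cells, fell by 1.18 (edgeR adjusted p = 0.00858) and 1.68 (edgeR adjusted p = 0.00727). The nuclear receptor Nr1h3 was higher in both (1.02, edgeR adjusted p = 0.00713, and 1.17, edgeR adjusted p = 0.0117), and the beta-1 adrenoceptor Adrb1 was higher in aged IgG2a mice (0.82, edgeR adjusted p = 0.0162). With aPD1ab, 5 of 20 were lower and 2 higher than in young mice, where 22.4% of all genes passed. Among the aged mice 0 of 20 passed with all libraries, and 5 were lower and 2 higher without aged IgG2a replicate 1, where 30.4% of all genes passed.

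Of the 8 genes of the macula densa, the tubule cells that signal to renin cells, 7 could be tested in aged IgG2a against young mice. Pappa2, a protease that acts on IGF-binding proteins, was higher (1.67, standard error 0.36, edgeR adjusted p = 0.0199), as was Mcub (1.15, edgeR adjusted p = 0.0403), and none was lower. Over all genes, 9.05% passed as higher and 8.38% as lower. Mcub was at 8.54 CPM in aged IgG2a replicate 1, within the young range, and at 23.5 to 28.8 CPM in replicates 2 to 4. Those replicates also had the higher macrophage marker sums, and the part of these cells was not tested. Cyclooxygenase 2 (Ptgs2) was at -0.21 (edgeR adjusted p = 0.708) and neuronal nitric oxide synthase (Nos1) at 0.29 (edgeR adjusted p = 0.442). With aPD1ab against young mice 0 of 7 passed edgeR's test, where 22.4% of all genes passed, with Ptgs2 at -0.88 (edgeR adjusted p = 0.0871).

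Downstream of the AT1 receptor and aldosterone, 22 genes were tested. In aged IgG2a against young mice 2 were lower and 4 higher, where 17.4% of all genes passed, with a median log2 fold change of -0.050. Phospholipase C beta 1 (Plcb1, -0.91, edgeR adjusted p = 0.0136) and the inositol trisphosphate receptor Itpr1 (-0.80, edgeR adjusted p = 0.0252) were lower, and Rgs2, which dampens Gq signals (1.08, edgeR adjusted p = 0.0240), and the G protein Gna12 (0.64, edgeR adjusted p = 0.0228) were higher. Also higher were Arrb2 and the phagocyte oxidase subunit Ncf1. In aged IgG2a replicate 1 they stood at 88.6 and 45.2 CPM. Replicates 2 to 4, with higher macrophage marker sums, held 229 to 272 CPM of Arrb2 and 101 to 138 CPM of Ncf1. In aged aPD1ab against young mice, where 22.4% of all genes passed, 5 were lower and 2 higher, led by Gna12 (0.66, edgeR adjusted p = 0.00288) and Plcb4 (-1.04, edgeR adjusted p = 0.0115). The comparison of the aged groups called 0 of 22 with all libraries. Leaving out aged IgG2a replicate 1, 4 were lower and 2 higher, a share of the list no larger than the 30.4% of all genes that passed, among them the phagocyte oxidase gene Cybb (-1.49, edgeR adjusted p = 0.00640), beside the lower macrophage markers, and the tubular oxidase gene Nox4 (2.60, edgeR adjusted p = 0.0152), beside the higher proximal tubule markers.

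Among genes of the kinin and natriuretic peptide systems, whose peptides oppose angiotensin II, 3 of 9 tested were lower in aged IgG2a than in young mice, beside 8.38% of all genes. The clearance receptor Npr3, which is known from podocytes, fell by 1.68 on the log2 scale (standard error 0.15, edgeR adjusted p = 0.000836), and the natriuretic peptide receptor Npr1 by 0.99 (standard error 0.12, edgeR adjusted p = 0.00312). Npr3 was at 23.5 to 32.6 CPM in young and 6.79 to 9.85 CPM in aged IgG2a libraries, without overlap, and at 15.3, 5.70, 7.90 and 23.5 CPM in aged aPD1ab libraries 1 to 4. The aged aPD1ab libraries thus lay from below the aged IgG2a range to the low end of the young range. In aged aPD1ab against young mice Npr3 (-1.07, edgeR adjusted p = 0.0497) and Npr1 (-0.60, edgeR adjusted p = 0.0496) were lower, and Cpn1 (1.44, edgeR adjusted p = 0.0251) and Npr2 (0.88, edgeR adjusted p = 0.0458) higher. In that comparison 22.4% of all genes passed. Cpn1 stood at 25.1, 92.2, 26.6 and 86.5 CPM in aged aPD1ab libraries 1 to 4. Cpn1 and Npr2 also were higher than in aged IgG2a mice without aged IgG2a replicate 1 (3.04, edgeR adjusted p = 0.00984, and 1.78, edgeR adjusted p = 0.0143). They were among 3 of 9 genes of the list called higher there, beside 17.1% of all genes.

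The genes most like each member over the 13 libraries were found among 14058 genes by Pearson's r of log2 CPM, a measure of likeness that the group differences and the make-up of each library enter. For Enpep they were Ppara (r = 0.977), Nbr1 (r = 0.977) and A1cf (r = 0.975). For Mme they were Erlin2 (r = 0.980), Tmem106b (r = 0.970) and Slc4a9 (r = 0.967). For Agtr1a they were Igf2bp2 (r = 0.967), Gna14 (r = 0.945) and Dhx32 (r = 0.940). Ren1 had less similar neighbours, Olfml2a (r = 0.865), Thbs2 (r = 0.858) and Gm26792 (r = 0.836), as had Atp6ap2, with Naa50 (r = 0.855), Azi2 (r = 0.842) and Gt(ROSA)26Sor (r = 0.828). After the mean of each group was subtracted, 2 of these 3 genes were again among the 3 most like Ren1, 1 of 3 for Mme, Agtr1a and Atp6ap2, and 0 of 3 for Enpep.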

How the data were processed

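The authors deposited whole-number read counts per Ensembl gene, without normalization, from mRNA-Seq (TruSeq kits, Illumina) of podocyte fractions. HISAT2, featureCounts, mm10 and GRCm38 are named in the submitters' processing notes; their versions, the annotation and the strand setting are not given in the sources used here. Of 15 columns, 13 were tied to a group by the study's principal component plot, and 2 columns were not used. Columns tie to a group, not to a single sample. A symbol was found in GENCODE M21 for 45229 of 46078 genes.

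Counts were tested in R 4.3.3 with edgeR 4.0.16 (quasi-likelihood, robust, TMM, filterByExpr), each pair of groups fitted alone over all mapped libraries, with Benjamini-Hochberg adjustment over all genes tested and a call at an adjusted p under 0.05. Standard errors are the log2 fold change over the square root of F. CPM were scaled by TMM over the 13 libraries, and levels between genes were compared per kilobase of merged exon. Alternatives were edgeR's RLE normalization, DESeq2 1.42.0, limma 3.58.1 voom with sample quality weights, 1 fit of all 3 groups, no filter on low counts, a 2-fold minimum, mitochondrially encoded genes left out, each library left out in turn, and library totals without TMM, which was chosen after seeing the data. The edgeR step was run on simulated data with the same spread for every gene and no outlying library. That run does not bear on libraries that stand apart, and its outcome is not reported here.

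The members and lists were chosen with earlier results of these data known, so counts over them are descriptions. Of 7 pathway and 9 marker lists, counts are given with up to 4 genes by smallest p, and other genes named were chosen after their values were seen. Likeness is Pearson's r of log2 CPM (prior count of 2) among genes with a mean of at least 1 CPM. A count of 3 reads was taken as the floor. Depth covers counting error only. Klkb1, the other cell fraction and the other columns were not analysed here. Sequences came from GRCm38 with GENCODE M21 transcripts and from RefSeq windows (GRCm38.p6). Some genes of the lists enter the counts and medians but are not reported here by name.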

Additional observations from a re-analysis of the deposited data

Results flagged for a closer look

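In 24 groups of 4 or 5 libraries (8 members in 3 groups each), 5 groups had a highest library that lay far from the others by Dixon's test, which flags about 1 in 20 groups by chance. Ren1 in young replicate 3 was at 77.469 CPM, against 11.7 to 29.9 CPM in the other young libraries. Agt in aged aPD1ab replicate 2 was at 43.956 CPM, against 4.76 to 11.3 CPM, and Ace in aged IgG2a replicate 4 was at 121.56 CPM, against 48.9 to 60.6 CPM. Enpep in aged IgG2a replicate 1 was at 70.83 CPM, against 19.4 to 25.9 CPM, and Mme in the same library was at 75.576 CPM, against 34.2 to 35.7 CPM.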

How the results depend on the processing

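Aged IgG2a against young mice gave 2780 genes called, 4455 with DESeq2, 7423 with limma voom with sample quality weights, 1353 with a 2-fold minimum, and 553 to 7397 when 1 library was left out. The members called were 5, 6 with voom (1 higher, 5 lower), 7 with library totals only (all lower), 3 in 1 fit of all 3 groups, 3 with a 2-fold minimum, and 1 to 5 when 1 library was left out. Aged aPD1ab against aged IgG2a mice gave 0 genes, 2373 with DESeq2, 6160 with voom, 2863 in 1 fit of all 3 groups, and 0 to 4788 when 1 library was left out, where the 4788 came without aged IgG2a replicate 1. The members called were 0, 2 with DESeq2, 2 with voom, 1 in 1 fit of all 3 groups, and 0 to 1 when 1 library was left out. Aged aPD1ab against young mice gave 3578 genes, 766 with a 2-fold minimum, and 2369 to 3868 when 1 library was left out. The members called were 2, 3 with voom, 3 with library totals only, 1 in 1 fit of all 3 groups, 0 with a 2-fold minimum, and 2 to 3 when 1 library was left out. Library totals without TMM moved the median of all genes from 0.038 to -0.376 in aged IgG2a against young mice, with 331 genes called higher and 3380 lower in place of 1443 and 1337. In the other 2 comparisons the median moved to 0.242 and -0.108. Signs turned with totals only for Atp6ap2 in aged IgG2a against young mice (-0.27), for Ace (0.19) and Atp6ap2 (0.083) between the aged groups, and for Anpep in aged aPD1ab against young mice (-0.050). Between the aged groups they turned without 1 library for Mme (-0.010 without aged IgG2a replicate 2, -0.063 without aged aPD1ab replicate 2) and Ace (0.27 without aged IgG2a replicate 4, 0.086 and 0.078 without aged aPD1ab replicate 3 and 4). In aged aPD1ab against young mice they turned with voom for Agt (-0.59) and Anpep (-0.097), and without 1 library for Agt (-0.56) and Anpep (-0.29) without aged aPD1ab replicate 2, Agtr1a (0.044) without aged aPD1ab replicate 3, and Atp6ap2 (0.0017 without young replicate 4, 0.016 and 0.013 without aged aPD1ab replicate 1 and 4). When 1 library was left out these values ran from -0.67 to 0.27 for Ace and -0.063 to 0.46 for Mme between the aged groups, and in aged aPD1ab against young mice from -0.56 to 0.91 for Agt, -0.33 to 0.044 for Agtr1a, -0.29 to 0.21 for Anpep and -0.17 to 0.016 for Atp6ap2. The cause was not tested. No paired analysis was possible because the columns carry no replicate number shared between groups.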
